A study of Mus musculus with 4 samples.

Results

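The domain examined here is a stretch of mouse chromosome 1 around Mroh2a, covering all accessible regions that start between positions 87000000 and 91000000 (mm10). It held 321 of the 87948 ATAC-seq peaks counted in hearts of Carm1 mutant and wild-type mice. The domain had been chosen by the genotype difference in CPM near Mroh2a, so the differences between genotypes inside it are given as a description, without p-values, and support nothing by themselves. Around Mroh2a and the neighbouring Hjurp, all 35 closely spaced peaks had a positive fitted log2 fold change, mutant over wild type. Over all 87948 peaks, 43910 did. Most of the mutant excess at the 35 peaks came from mutant replicate 2. The strongest of the 35 peaks, over the Hjurp promoter, showed almost no difference. In Sh3bp4, farther along the chromosome, 4 of 24 peaks were called higher, where 3.05% of all peaks were. At these 4 both mutant libraries stood above both wild-type libraries, as in 25.8% of all peaks. Without mutant replicate 2, 3 of these 4 calls were lost, and without wild-type replicate 2 all 4 were. A peak near Ackr3 was lower in both mutant libraries.

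ATAC-seq reads open chromatin by letting a transposase cut DNA that is free of tightly packed nucleosomes, and the count in a peak rises with how often the region was cut. The study collected 2 libraries from hearts of Carm1 mutant mice and 2 from hearts of wild-type mice, all at postnatal day 14. The series text calls the hearts neonatal. Carm1 is an arginine methyltransferase that methylates histone H3 and works as a coactivator of transcription. The labels give neither the allele of the mutant nor a promoter or Cre line. The labels do not say whether replicates came from separate animals, so the spread between libraries may be partly technical. Total counts in peaks were 16740589 and 15945420 in mutant replicates 1 and 2, against 17508230 and 19091969 in wild-type replicates 1 and 2. Values below are CPM, counts scaled to library size with TMM factors, and each log2 fold change sets the mutant over the wild type.

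The domain is gene-rich and functionally mixed, with 49 protein-coding and 39 lncRNA genes. Toward its low end lies the Ugt1a locus, whose alternative first exons yield the enzymes that attach glucuronic acid to bilirubin, hormones and drugs, mainly in liver and gut. Next to it lies Mroh2a, a gene of the maestro HEAT-like repeat family. Mroh2a runs tail to tail into Hjurp, which encodes the chaperone that deposits the centromeric histone CENP-A in dividing cells. Trpm8, the cold-sensing channel gene of sensory neurons, follows. Farther on lie Sh3bp4 and Agap1, genes of endosomal traffic, Ackr3, which encodes a scavenging receptor for the chemokine CXCL12, and Col6a3, which encodes a chain of collagen VI.

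The promoters of Ugt1a1, Mroh2a, Hjurp and Sh3bp4 are shown because a counted peak lay over each of them and their peaks behaved differently between libraries. Each runs 5′ to 3′ on the gene's own strand, from 250 bases before to 50 bases after the start, as RefSeq gives it on GRCm38.p6, the same assembly as mm10. The Ugt1a1 window is at chr1:88211709-88212008 (plus strand), Mroh2a at chr1:88226770-88227069 (plus), Hjurp at chr1:88277530-88277829 (minus) and Sh3bp4 at chr1:89070165-89070464 (plus). Capitals mark matches, on either strand, to any of 10 motifs: the promoter box TATAAA, the motif of NF-Y spelled CCAAT, the Sp1 box GGGCGG, the AP-1 motif TGANTCA, the ETS motif CCGGAAG, the TEAD motif GGAATG, the GATA factor motif AGATAA, the HNF1 core GTTAAT, the nuclear receptor core AGGTCA and the E-box CACGTG.
Ugt1a1 promoter: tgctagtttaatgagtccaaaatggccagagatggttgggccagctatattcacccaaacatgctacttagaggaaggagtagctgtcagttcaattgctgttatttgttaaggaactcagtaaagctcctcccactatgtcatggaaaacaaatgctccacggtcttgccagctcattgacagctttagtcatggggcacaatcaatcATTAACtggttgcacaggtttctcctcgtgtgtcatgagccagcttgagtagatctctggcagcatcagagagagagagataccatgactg
Mroh2a promoter: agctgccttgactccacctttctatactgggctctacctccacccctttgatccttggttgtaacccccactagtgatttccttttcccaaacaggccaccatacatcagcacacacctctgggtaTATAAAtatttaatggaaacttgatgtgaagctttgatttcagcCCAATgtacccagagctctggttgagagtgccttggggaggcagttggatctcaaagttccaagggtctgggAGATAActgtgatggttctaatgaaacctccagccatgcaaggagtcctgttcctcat
Hjurp promoter: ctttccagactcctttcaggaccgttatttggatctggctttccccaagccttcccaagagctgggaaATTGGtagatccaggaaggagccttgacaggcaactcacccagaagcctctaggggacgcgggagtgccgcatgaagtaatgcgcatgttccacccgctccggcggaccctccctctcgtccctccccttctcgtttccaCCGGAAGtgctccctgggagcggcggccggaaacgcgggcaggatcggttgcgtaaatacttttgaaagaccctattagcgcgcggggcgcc
Sh3bp4 promoter: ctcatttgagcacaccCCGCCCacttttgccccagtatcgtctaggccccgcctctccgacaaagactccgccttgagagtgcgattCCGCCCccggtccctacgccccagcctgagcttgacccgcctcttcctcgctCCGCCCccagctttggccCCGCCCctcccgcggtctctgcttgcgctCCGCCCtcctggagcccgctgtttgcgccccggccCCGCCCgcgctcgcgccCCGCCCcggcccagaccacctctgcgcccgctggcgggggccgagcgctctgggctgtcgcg

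The sequences separated into 2 kinds. The windows of Ugt1a1 and Mroh2a had a GC content of 45.3% and 47.3% with 2 and 0 CpG dinucleotides, below the medians of 52.7% and 7 over all 32851 promoter windows of the RefSeq table. The windows of Hjurp and Sh3bp4 had 59.7% and 73.3% with 22 and 34 CpG, the CpG-rich kind typical of broadly used genes. Mroh2a had 1 match to the promoter box, 1 to the NF-Y motif and 1 to the GATA factor motif, which 13.6%, 37.4% and 11.2% of all windows hold. Ugt1a1 had 1 match to the HNF1 core, which 7.1% of windows hold. Hjurp had 1 match to the NF-Y motif and 1 to the ETS motif, and the ETS letters occur in 8.86% of windows. Sh3bp4 had 7 matches to the Sp1 box, present in 35.7% of windows. None of the listed motifs overlapped another in these 4 windows. Such matches describe the letters and do not show that a factor was bound.

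Over the whole domain the genotype difference was small and uneven. By edgeR's quasi-likelihood test over all 87948 peaks, with a Benjamini-Hochberg adjusted p under 0.05 as the call, 24 of the 321 peaks were called higher in the mutant, where 3.05% of all peaks were, and 6 were called lower, where 2.45% of all peaks were. The median log2 fold change was 0.12 in the domain and 0.00 over all peaks. Of the 24 higher calls, 14 fell among the 42 peaks from Ugt1a1 to the end of Trpm8, a stretch delimited after its values were seen. In the other 279 peaks, 10 were called higher and 6 lower, with a median log2 fold change of 0.03. Both mutant libraries lay above both wild-type libraries in 109 of the 321 peaks, against 25.8% of all peaks, and below both in 64, against 25.7% of all peaks. The domain took 0.2806% of all counts in peaks in mutant replicate 1 (exact binomial 95% interval 0.2781 to 0.2832) and 0.3319% in mutant replicate 2 (0.329 to 0.3347). The wild-type libraries gave 0.282% (0.2795 to 0.2845) and 0.2843% (0.2819 to 0.2867). Mutant replicate 2 therefore stood above the other 3 libraries, which lay close together; these intervals cover counting error only. At the limits of the domain, the first peak inside (start 87010758) had a log2 fold change of -0.22 and the last peak outside on that side -0.63. The last peak inside, at Lrrfip1, had 0.37 and the next one outside 0.26.

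**Figure D1:**
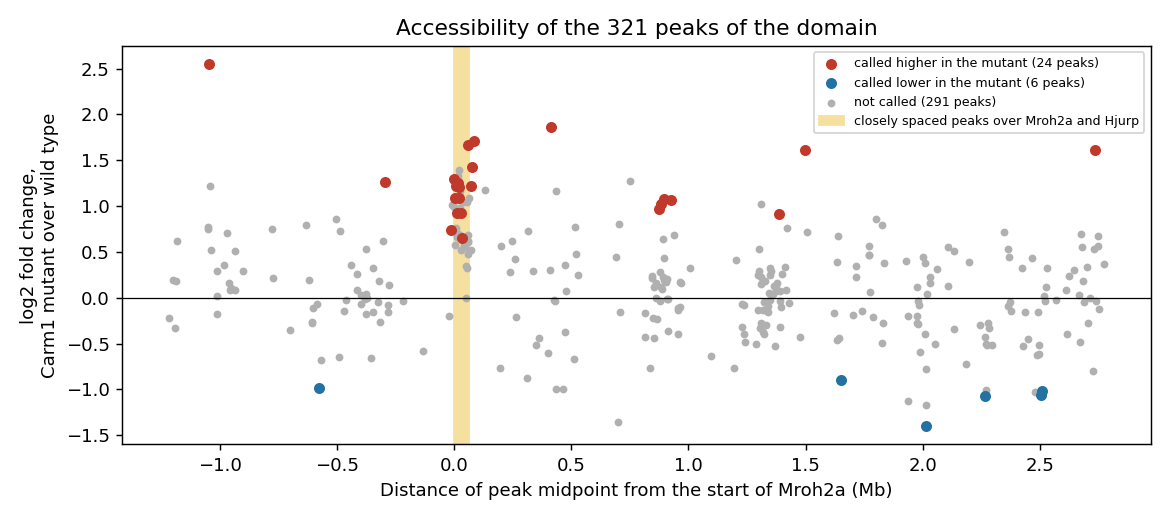
Log2 fold change (mutant over wild type) of each of the 321 peaks against the distance of its midpoint from the start of Mroh2a in Mb; red points were called higher (24), blue points lower (6) and grey points were not called. The shaded band, the closely spaced peaks over Mroh2a and Hjurp, has no point below 0, while points elsewhere scatter on both sides.

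Along the chromosome, only the windows at Mroh2a departed strongly from the wild-type level, and there in a single library. In windows of 250 kb, the summed accessibility from 88000000 on was 163.7 and 309.1 CPM in mutant replicates 1 and 2, against 151.5 and 117.2 CPM in wild-type replicates 1 and 2. On a log2 scale over the wild-type mean these were 0.29 and 1.2 in the mutant libraries. In the next window, from 88250000 on, they were 0.08 and 0.61. In the other 14 windows the mutant libraries lay between -0.32 and 0.41. The window from 89250000 on lies past Sh3bp4 and takes in the start of Agap1. It was the one with the lowest values shared by both mutant libraries, -0.32 and -0.31, with 0 of its 8 peaks called.

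**Figure D2:**
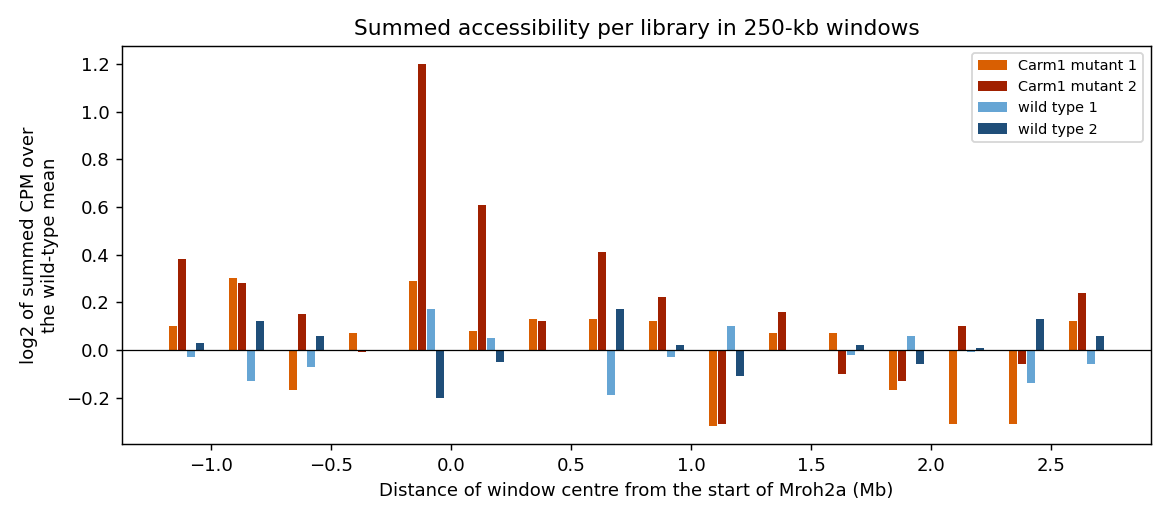
Log2 of the summed CPM of each library over the wild-type mean in 16 windows of 250 kb, placed by the distance of the window centre from the start of Mroh2a in Mb; each bar is 1 library. The bar of mutant replicate 2 reaches 1.2 and 0.61 in the windows at Mroh2a, where that of mutant replicate 1 reaches 0.29 and 0.08.

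The peaks over Mroh2a and Hjurp lay close together. Which libraries the peaks were called from is not given in the sources used here, so this density is not independent of the genotype difference. When peaks less than or equal to 5 kb apart were joined, 35 peaks formed an unbroken cluster from 88226619 to 88292080, 65.5 kb long. Peaks covered 66.3% of its length, against 4.91% of the rest of the domain. Joining close peaks favours such a contrast by construction, and the coverage of other joined groups was not computed. Of its 34 gaps 29 were under 1 kb, and 15 of the peaks were wider than 1 kb, the widest 5097 bp. Their median width was 794 bp, against 591 bp in the domain and 532 bp over all peaks. Among 47928 such groups in the genome, 12 had more peaks. These groups include single peaks, and their median size was 1 peak. Peaks fell within Mroh2a in 20 cases and within Hjurp in 7, with 1 peak placed in both where the genes overlap. Counted peaks were thus spread along Mroh2a and not limited to its promoter.

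Within this cluster the order of the libraries was nearly constant. Mutant replicate 2 was the highest library in 34 of 35 peaks and wild-type replicate 2 the lowest in 31, while wild-type replicate 1 exceeded wild-type replicate 2 in 32. Over all 87948 peaks these counts were 22299, 21341 and 43944. The summed accessibility was 454.2 and 738.3 CPM in mutant replicates 1 and 2, against 445.0 and 389.3 CPM in wild-type replicates 1 and 2. Mutant replicate 1 thus lay at 1.09 times the wild-type mean and mutant replicate 2 at 1.77 times. All 35 fitted log2 fold changes were 0 or above, from 0.00 to 1.67 with a median of 0.76, and 10 peaks were called higher, where 3.05% of all peaks were. Mutant replicate 1 lay above both wild-type libraries in 21 of the 35 peaks, and in 34560 of all 87948 peaks. The ratio of mutant replicate 2 to mutant replicate 1 was 1.63 here, and in the 12 groups with more peaks elsewhere it lay between 0.732 and 1.02.

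The peak over the Mroh2a promoter (88226619 to 88227401) had 5.90 and 11.3 CPM in mutant replicates 1 and 2, against 4.41 and 4.23 CPM in the wild type, a log2 fold change of 0.99 (SE 0.30) that was not called. The next peak into the gene (88227848 to 88228622) had 4.62 and 15.3 CPM in the mutant, against 4.53 and 3.56 CPM in the wild type, and was called higher (log2 fold change 1.30, SE 0.37). In both, mutant replicate 2 stood far above the rest and mutant replicate 1 just above the wild type.

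In the middle of the gene, a peak at 88234355 to 88235734 had 10.9 and 18.7 CPM in the mutant, against 7.75 and 4.95 CPM in the wild type (log2 fold change 1.22, SE 0.27). A broad peak at 88244796 to 88247321 had 14.7 and 35.8 CPM in the mutant, against 12.1 and 9.86 CPM in the wild type (log2 fold change 1.21, SE 0.28). Here the groups did not overlap. In another broad peak at 88248311 to 88250638 they did, with 14.1 and 41.1 CPM in the mutant, against 15.6 and 10.3 CPM in the wild type (log2 fold change 1.09, SE 0.31). Called peaks such as this one therefore include cases in which only mutant replicate 2 was high.

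At the shared 3′ ends of Mroh2a and Hjurp, the widest peak inside Mroh2a (88259075 to 88263932) had 49.8 and 76.3 CPM in the mutant, against 41.6 and 38.5 CPM in the wild type (log2 fold change 0.65, SE 0.17). It was among the 3 most accessible peaks of the domain. Over all 20 peaks within Mroh2a, the sums were 197.4 and 396.3 CPM in the mutant, against 179.4 and 141.2 CPM in the wild type. The 20 log2 fold changes lay between 0.52 and 1.39 with a median of 0.98, and 9 of the peaks were called higher (3.05% over all peaks). In 11 both mutant libraries lay above both wild-type ones (25.8% over all peaks).

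The promoter of Hjurp behaved otherwise. Its peak (88273439 to 88278536), the strongest of the domain, had 166.4 and 198.0 CPM in the mutant, against 179.0 and 185.2 CPM in the wild type, a log2 fold change of 0.00 (SE 0.12). The groups overlapped, and mutant replicate 2 was only slightly above the others. This peak lay between peaks in which mutant replicate 2 stood relatively further above the others. The size of that library's excess thus differed between peaks of the cluster. Without the Hjurp promoter peak, the cluster summed to 287.8 and 540.3 CPM in the mutant, against 266.0 and 204.1 CPM in the wild type.

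**Figure D3:**
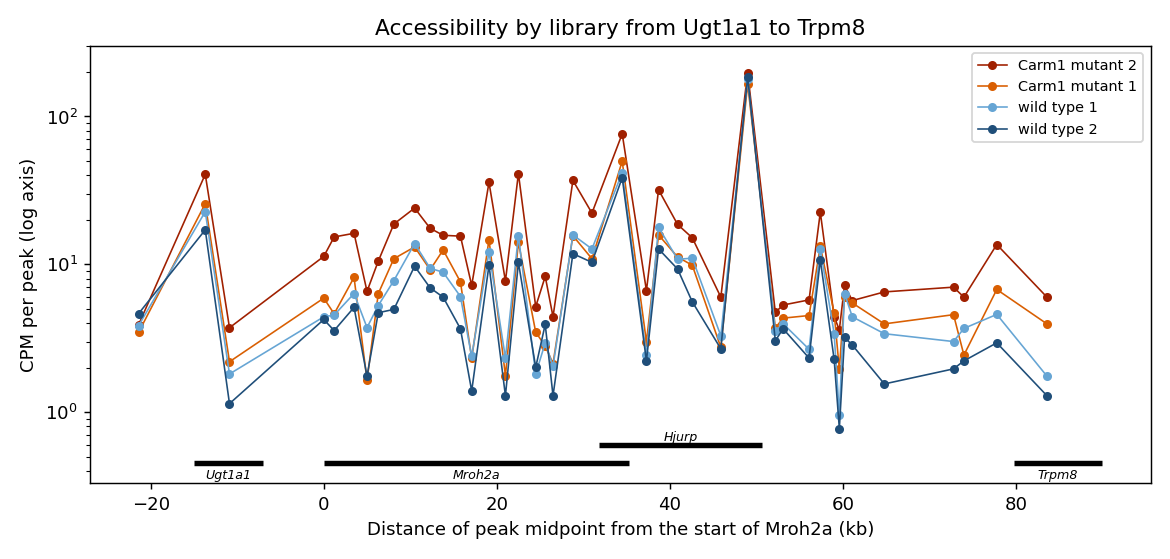
CPM of each peak (log axis) in the 4 libraries against the distance of its midpoint from the start of Mroh2a in kb, with the extents of Ugt1a1, Mroh2a, Hjurp and the first part of Trpm8 drawn below. The line of mutant replicate 2 runs above the others across Mroh2a, and all 4 lines meet at the Hjurp promoter peak, at 166.4 to 198.0 CPM.

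From Ugt1a1 to the end of Trpm8, the cluster included, mutant replicate 2 was the highest library in 41 of 42 peaks. Over all 87948 peaks it was in 22299. This stretch was delimited after its values were seen. Before Ugt1a1 the order did not hold. The peak over the start of Dnajb3 (88205378 to 88205895) had 3.47 and 3.91 CPM in the mutant, against 3.85 and 4.64 CPM in the wild type. The peak over the start of Ugt1a1, which encodes the bilirubin-conjugating enzyme (88211529 to 88215144), had 25.7 and 40.6 CPM in the mutant, against 22.7 and 17.1 CPM in the wild type, and was called higher (log2 fold change 0.74, SE 0.20). Of the 4 peaks within the Ugt1a locus, no other was called. The start of Ugt1a7c, another first exon of the locus, carried a weak peak with 2.80 and 4.23 CPM in the mutant, against 5.32 and 5.21 CPM in the wild type, so the groups were ordered the other way there (log2 fold change -0.58, SE 0.30, not called). Of the 9 Ugt1a genes, these were the only ones with a peak over their start.

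On the far side, 3 peaks at the start of Trpm8 were called higher. The peak just upstream (88304300 to 88305298) had 6.75 and 13.6 CPM in the mutant, against 4.58 and 2.94 CPM in the wild type (log2 fold change 1.43, SE 0.32). The peak inside the gene (88310401 to 88310780) had 3.95 and 5.99 CPM in the mutant, against 1.75 and 1.29 CPM in the wild type (log2 fold change 1.71, SE 0.36). In the weaker peak 6610 bp from Trpm8 (start 88299398) the values were 4.56 and 7.0 CPM in the mutant, against 3.0 and 1.96 CPM in the wild type. At all 3 both mutant libraries were above both wild-type libraries, as in 25.8% of all peaks. The calls come from the same libraries, so this order adds no separate support. Inside the cluster, a weak called peak 8856 bp from Hjurp (start 88286500) had 1.95 and 3.60 CPM in the mutant, against 0.962 and 0.774 CPM in the wild type (log2 fold change 1.67, SE 0.44).

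The calls at Mroh2a rested on mutant replicate 2 and, in part, on wild-type replicate 2. Without mutant replicate 2, 0 of the 35 peaks of the cluster were called, although 4.9% of all peaks were called higher in that fit, and the median log2 fold change was 0.30, with 29 of 35 above 0. Without mutant replicate 1, 28 were called, where 4.78% of all peaks were, and the median was 1.2. Without wild-type replicate 1, 7 were called, where 1.17% of all peaks were; without wild-type replicate 2, 0 were called, where 0.73% of all peaks were, with a median of 0.68. DESeq2 on all 4 libraries called 4, where it called 1.55% of all peaks higher. A fit that leaves out 1 library has its spread from the remaining pair alone, so a lost call can reflect the spread as well as the fold. Over the whole domain, 12 peaks were higher and 18 lower without mutant replicate 2, where 4.7% of all peaks were lower. Without mutant replicate 1, 56 were higher and 3 lower, where 3.11% of all peaks were lower. Without wild-type replicate 1 there were 15 and 3, where 1.0% of all peaks were lower, and without wild-type replicate 2 there were 2 and 1, where 0.414% of all peaks were lower. The 3 calls that remained without wild-type replicate 2 were the higher peaks near Prss56 and within Dgkd and the lower peak near Ackr3.

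Sh3bp4, which encodes a regulator of receptor endocytosis, carried 4 higher peaks among the 24 within it, where 3.05% of all peaks were called higher. Mutant replicate 2 was the highest library in 3 of the 4. The peak at 89102316 to 89103311, which also overlaps the lncRNA gene Gm34331, had 22.5 and 20.3 CPM in the mutant, against 12.1 and 9.81 CPM in the wild type (log2 fold change 0.97, SE 0.20). The peak at 89107748 to 89109394 had 14.6 and 22.1 CPM in the mutant, against 10.0 and 8.05 CPM in the wild type (log2 fold change 1.02, SE 0.23). At both peaks the mutant libraries lay above both wild-type libraries, an order found in 25.8% of all peaks. In the first of them mutant replicate 1 was the higher.

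The other called peaks of Sh3bp4 were weaker. That at 89121498 to 89122228 had 6.75 and 10.5 CPM in the mutant, against 3.73 and 4.39 CPM in the wild type. That at 89152152 to 89153053, near the 3′ end, had 7.36 and 9.09 CPM in the mutant, against 3.85 and 3.97 CPM in the wild type. The promoter peak of Sh3bp4 (89069005 to 89071488), the second most accessible of the domain, had 98.4 and 108.0 CPM in the mutant, against 87.3 and 89.4 CPM in the wild type, and was not called (log2 fold change 0.22, SE 0.13). Summed over the gene, the 24 peaks gave 212.0 and 226.0 CPM in the mutant, against 183.3 and 183.7 CPM in the wild type. Here the gap between the genotypes was larger than that between the mutant libraries. Without mutant replicate 2 the peak shared with Gm34331 was still called, with a log2 fold change of 1.04, and the other 3 were not (0.69 to 0.91). None of the 4 was called without wild-type replicate 2.

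Agap1, which encodes a GTPase-activating protein for Arf proteins, spans 440.5 kb and held 53 peaks, of which 2 were called higher and 1 lower, near the 3.05% and 2.45% of all peaks. An intronic position could not be assigned, since the gene table gives no exons. The peak at 89613431 to 89614114 had 16.2 and 14.3 CPM in the mutant, against 7.53 and 8.67 CPM in the wild type (log2 fold change 0.91, SE 0.22). A weak peak at 89724234 to 89724526 had 3.77 and 3.34 CPM in the mutant, against 1.24 and 1.08 CPM in the wild type (log2 fold change 1.61, SE 0.38). In both, the mutant libraries were near each other. They lay above both wild-type libraries, as in 25.8% of all peaks. Both peaks stayed called without either mutant library but not without either wild-type library. The lower peak, near the 3′ end (89876499 to 89877244), had 6.14 and 9.09 CPM in the mutant, against 15.5 and 12.8 CPM in the wild type (log2 fold change -0.90, SE 0.24). Summed over the gene the libraries differed little, with 421.9 and 455.3 CPM in the mutant, against 426.8 and 426.8 CPM in the wild type.

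The remaining higher calls were single peaks. Within Rab17, a small GTPase gene of epithelial traffic, the peak at 90963076 to 90963436 had 5.23 and 6.69 CPM in the mutant, against 1.98 and 1.91 CPM in the wild type (log2 fold change 1.61, SE 0.32). Within Dgkd, which encodes a diacylglycerol kinase, the peak at 87933063 to 87933301 had 5.54 and 4.61 CPM in the mutant, against 1.24 and 2.94 CPM in the wild type (log2 fold change 1.26, SE 0.37). Both mutant libraries lay above both wild-type libraries in each, as in 25.8% of all peaks.

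In the other 2 of these peaks mutant replicate 2 led. Near Prss56, a serine protease gene (87181003 to 87181251), the mutant had 0.973 and 7.0 CPM, against 0.566 and 0.774 CPM in the wild type, giving the largest fold of the domain (log2 fold change 2.55, SE 0.62; 0.53 without mutant replicate 2). More than 50 kb from any protein-coding gene end (88639475 to 88639796), the mutant had 2.37 and 5.55 CPM, against 1.41 and 0.774 CPM in the wild type (log2 fold change 1.86, SE 0.45).

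The domain had 6 lower calls among its 321 peaks, where 2.45% of all peaks were called lower. The peak 24496 bp from Ackr3 (90240220 to 90240791) had 4.93 and 4.16 CPM in the mutant, against 12 and 12 CPM in the wild type (log2 fold change -1.40, SE 0.25). It was the only 1 of the 30 called peaks that was also called whichever library was left out and by DESeq2, which called 1 peak of the domain lower, where it called 1.15% of all peaks lower. The promoter peak of Ackr3 showed no such gap, with 32.7 and 25.4 CPM in the mutant, against 30.4 and 23.1 CPM in the wild type (log2 fold change 0.12, SE 0.18).

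Neighbouring peaks 33403 and 32244 bp from the 3′ end of Col6a3 fell together. The first (90732844 to 90733457) had 5.54 and 4.42 CPM in the mutant, against 7.81 and 13.0 CPM in the wild type (log2 fold change -1.06, SE 0.28). The second (90734010 to 90734616) had 4.14 and 5.17 CPM in the mutant, against 7.64 and 11.2 CPM in the wild type (log2 fold change -1.02, SE 0.27). They lie close together and are not independent of each other. At the Col6a3 promoter (90842847 to 90844021) the mutant had 5.54 and 6.81 CPM, against 8.66 and 7.53 CPM in the wild type (log2 fold change -0.39, SE 0.25, not called).

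Within Inpp5d, which encodes the leukocyte phosphatase SHIP1, the peak at 87650576 to 87651126 had 3.16 and 4.73 CPM in the mutant, against 6.73 and 8.82 CPM in the wild type (log2 fold change -0.98, SE 0.29). All 6 peaks within Inpp5d had a negative log2 fold change, from -0.98 to -0.07, where 43910 of all 87948 peaks had a positive one. Only the peak at 87650576 was called. Both mutant libraries lay below both wild-type libraries in 3 of the 6, and mutant replicate 2 was the highest library in 3. Outside the gene, the peak 901 bp from its end went the other way (log2 fold change 0.86). The peak 12838 bp from its end had -0.65, and neither was called. Within the lncRNA gene Gm28722, between Ackr3 and Cops8, the peak at 90493229 to 90494008 had 3.41 and 5.55 CPM in the mutant, against 9.90 and 8.93 CPM in the wild type (log2 fold change -1.07, SE 0.27). In each of the 6 lower peaks both mutant libraries lay below both wild-type libraries, as in 25.7% of all peaks. The calls come from the same libraries, so this order adds no separate support.

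**Figure D4:**
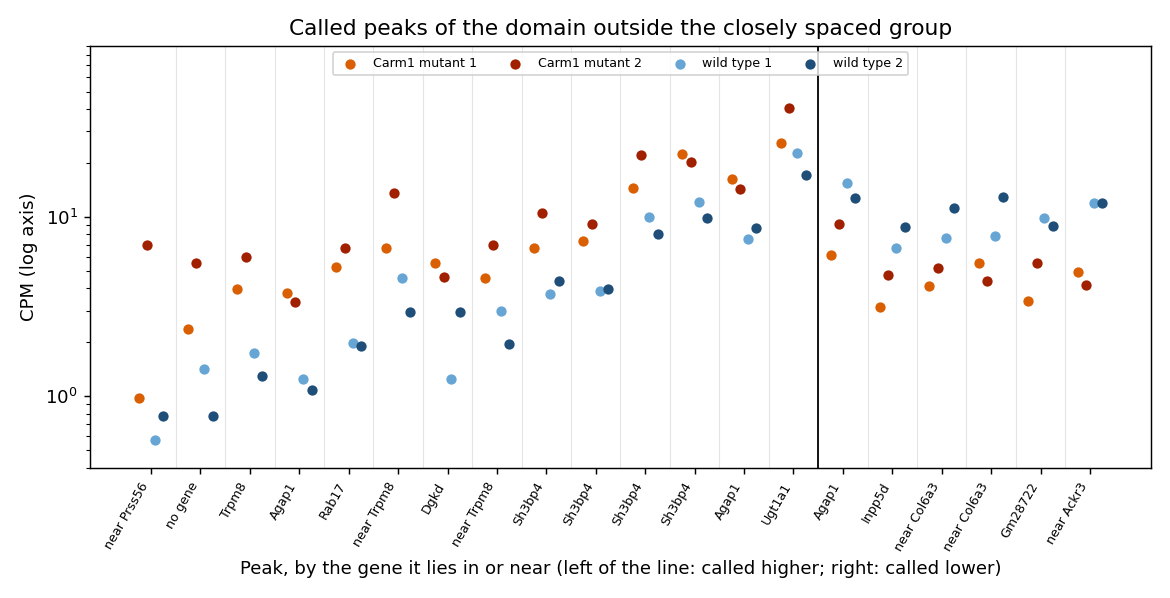
CPM (log axis) in the 4 libraries for the 20 called peaks outside the cluster at Mroh2a and Hjurp, ordered by fold change; the black line divides the 14 higher from the 6 lower peaks, and each point is 1 library. The mutant points lie on 1 side of the wild-type points in every column, though the peaks were called from these same 4 libraries. Near Prss56 only mutant replicate 2, at 7.0 CPM, stands well apart.

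Of the 49 protein-coding genes, 45 had a promoter window in RefSeq, and a peak overlapped that window in 23. Atg16l1 had no such window, though a peak (87755461 to 87756686) lay over 1 of its ends. The 25 peaks that overlapped a promoter window of any gene had a median log2 fold change of 0.00 and a range from -0.58 to 0.99, and only that of Ugt1a1 was called. Among strong promoters, Gigyf2, a translational repressor gene, had 46.0 and 40.1 CPM in the mutant, against 32.3 and 38.0 CPM in the wild type. Its partner Eif4e2, which encodes a cap-binding protein, had 30.5 and 29.2 CPM in the mutant, against 28.1 and 30.7 CPM in the wild type. Arl4c, a small GTPase gene, had 59.9 and 44.4 CPM in the mutant, against 40.3 and 40.7 CPM in the wild type. Lrrfip1, at the edge of the domain, had 61.1 and 47.6 CPM in the mutant, against 41.9 and 42.5 CPM in the wild type. Mutant replicate 1 was the highest library at Gigyf2, Arl4c and Lrrfip1, unlike at Mroh2a.

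The gene groups are described by their counts, to be read against the 3.05% of all peaks called higher and the 2.45% called lower. The group around Mroh2a is the one for which the domain was chosen. With each peak given to the coding gene whose end was closest, up to 50 kb away, Usp40, Dnajb3, Mroh2a, Hjurp, Trpm8, Spp2, Sag and Kcnj13 had 56 peaks, of which 14 were called higher and 0 lower, with a median log2 fold change of 0.65. The peak within Dgkd is among these calls, since the closest gene end is that of Usp40. The traffic genes Arl4c, Sh3bp4, Agap1, Rab17 and Mlph had 74 peaks, with 5 higher, 1 lower and a median of 0.02. The 2 higher peaks within Agap1 are not among these calls, since no coding gene end lies within 50 kb of them. Signalling and autophagy genes (Inpp5d, Dgkd, Atg16l1, Ngef, Neu2 and Efhd1) had 29 peaks, with 0 higher, 1 lower and a median of 0.00. The 2 translation control genes had 7 peaks with 0 calls. Developmental regulators (Gbx2, Ackr3 and Cops8) had 26 peaks, with 0 higher and 1 lower. Asb18, Col6a3 and Lrrfip1 had 22 peaks, with 0 higher and 2 lower. The lower calls of the signalling, developmental and Asb18 groups, 1 or 2 in each, are too few to set these groups apart from those shares. The phosphatase, protease and acetylcholine receptor genes at the low end had 5 peaks, all at Prss56, with 1 called higher, and the alkaline phosphatase genes Alppl2, Alpi and Akp3 had none. The Ugt1a genes had 3 peaks, with 1 called higher.

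Markers of heart cell types were accessible in all libraries, as summed over the strongest peak at each marker gene's end. Cardiomyocyte markers (8 of 8 genes with such a peak) summed to 903.8 and 789.8 CPM in the mutant, against 762.8 and 723.7 CPM in the wild type. Endothelial markers (7 of 8) summed to 182.8 and 187.5 CPM in the mutant, against 246.5 and 168.8 CPM in the wild type. Fibroblast markers (8 of 8) summed to 86.3 and 105.6 CPM in the mutant, against 86.2 and 95.2 CPM in the wild type. Leukocyte markers (5 of 8) summed to 134.5 and 136.5 CPM in the mutant, against 128.3 and 124.0 CPM in the wild type. Mural markers (6 of 6) ranged from 87.1 to 105.8 CPM over the 4 libraries. Hepatocyte markers had a peak at 2 of 6 genes, with 17.6 to 24 CPM in all. The highest library differed between the marker sets. It was mutant replicate 1 for the cardiomyocyte, mural and hepatocyte markers and wild-type replicate 1 for the endothelial markers. It was mutant replicate 2 for the fibroblast and leukocyte markers, for the latter by a small margin over mutant replicate 1. In a whole-heart sample, fewer cells of a type and less open chromatin per cell cannot be told apart, and the part of cell composition in the values at Mroh2a was not tested.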

How the data were processed

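Per the labels, a commercial provider prepared ATAC-seq libraries of hearts at postnatal day 14. The submitters' processing notes name FastQC, Bowtie2 and the build mm10, without versions; the peak caller, read filters, duplicate handling and transposase shift: not given in the sources used here. The deposited table of the authors holds whole-number counts, raw and not normalized, per the file headers, with 4 columns that match the 4 titles. Whether its starts count from 0 or 1 is not stated, so distances may be off by 1 base. Depth is the total count in peaks given in the report.

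From these counts, edgeR 4.0.16 (limma 3.58.1, R 4.3.3) fitted all 87948 peaks with genotype as the only term, TMM scaling and filterByExpr, which removed 0 peaks; the common biological coefficient of variation was 0.166. Standard errors come from the test statistic. Genes and promoters come from RefSeq (GRCm38.p6). Peaks at most 1 kb from the end of a gene belong to that gene, any other to the nearest protein-coding gene end within 50 kb, and "within" means that its midpoint lies between the gene's ends. The gene table gives no exons. Peaks described are those of Mroh2a, up to 12 called peaks per direction (at most 2 per gene), the strongest gene-end peaks of listed genes and the 3 most accessible; all other called peaks were added after their values were seen, as was the joining of peaks across 5 kb. The domain and the lists were chosen with earlier results of these data known. Of 55 listed genes, 43 lie in the domain, and none of the clock and housekeeping list does. The procedure was tested on simulated counts. Alternatives were other scalings, filters, DESeq2 1.42.0, a replicate block, each library left out, and narrower limits. Python 3.11.15 was used for the rest.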

Additional observations from a re-analysis of the deposited data

How the results depend on the processing

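With RLE factors, total counts, no filter or a domain narrowed by 500 kb on each side, every count of calls in the domain stayed within 1.5 times that reported, as it did for 19 higher calls at a mean CPM of at least 2. In the domain, DESeq2 called 12 higher and 1 lower peak, and a replicate block 48 and 14 (5.95% and 5.11% of all peaks). Leaving out 1 library gave 2 to 56 higher and 1 to 18 lower calls; the fit without wild-type replicate 2 gave 2 and 1, and that without mutant replicate 2 gave 12 and 18 (4.7% of all peaks were lower in it). The median log2 fold change of the domain was 0.02 to 0.17 when 1 library was left out, lowest without mutant replicate 2. The share of counts in the domain was 0.0231 percentage points higher in the mutant (0.306% against 0.283%), and -0.00251 without mutant replicate 2, a reversal, to 0.0487 without mutant replicate 1. In the cluster at Mroh2a and Hjurp, higher calls numbered 6 at a mean CPM of at least 2, 4 with DESeq2, 22 with the replicate block and 0 to 28 with 1 library left out, and the median log2 fold change was 0.30 to 1.2. Joining peaks across 3 kb gave 10 calls. Same-numbered libraries deviated together only weakly (correlation 0.108 over all peaks), and nothing in the labels pairs them. Over 61 named peaks and 10 alternatives, 507 of 609 values kept their side of the threshold, 75 lost and 27 gained the call, and 0 called values changed sign. The 507 include uncalled values that changed sign. In a peak within Mroh2a (start 88231749), for example, the log2 fold change was 0.58, and -0.73 without mutant replicate 2. With peaks counted inside the gene body only, Mroh2a had 9 higher calls in place of 6 and Hjurp 1 in place of 4. Alternatives for the cluster were chosen after seeing the data, and causes were not tested. At 2 libraries per genotype, differences under a fold of 2 may be missed.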
